A study of Mus musculus with 4 samples.

Results

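The genes described here encode 5 receptors that were first known from natural killer (NK) cells, the NKG2 lectin receptors Klrk1, Klrc1, Klrc2 and Klrd1 and the related lectin receptor Klrg1. They were chosen by name, and the symbol column of the files held all 5 of 5 among 32285 genes. Their UMI counts (unique molecular identifiers, 1 per captured transcript) were followed in single CD8+ PD-1+ CD44+ T cells sorted from the tumor-draining lymph node (TdLN). Female C57BL/6 mice, 6 weeks old when bought, carried B16F10GP melanomas on both flanks, a B16F10 line engineered to express the glycoprotein of lymphocytic choriomeningitis virus. The groups were RT + αPD-L1, in which the right tumor was irradiated and an antibody blocking PD-L1 was injected, RT alone, αPD-L1 alone, and Control mice that carried the same tumors without treatment. Treated mice were sampled on day 7. Each group was 1 droplet library holding cells of 5 mice marked by hashtag antibodies, so an effect of treatment and an effect of the library cannot be told apart.

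NKG2 receptors sit on NK cells and on CD8+ T cells that have met antigen, where they raise or lower the threshold for killing. CD94, encoded by Klrd1, pairs either with the inhibitory chain NKG2A, encoded by Klrc1, or with the activating chain NKG2C, encoded by Klrc2, and both pairs bind the non-classical MHC class I molecule Qa-1 on neighboring cells. NKG2D, encoded by Klrk1, forms a receptor of its own for stress-induced ligands and costimulates T cells through the adaptor DAP10. KLRG1 binds cadherins, carries an inhibitory motif and is widely used to mark short-lived effector cells. Klrk1 has a special place in these data, because the study used it with Ly6a on these same libraries to mark a Tcf7+ subset. Its rise is therefore not independent evidence for that subset.

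All 5 genes lie on mouse chromosome 6 (GRCm38). Klrd1 (ENSMUSG00000030165) spans chr6:129591782-129598775 on the plus strand. Klrk1 (ENSMUSG00000030149, chr6:129610323-129623864), Klrc2 (ENSMUSG00000052736, chr6:129647496-129660689) and Klrc1 (ENSMUSG00000030167, chr6:129666015-129678973) follow it on the minus strand. These 4 genes fill 87.2 kb of the NK gene complex, whereas Klrg1 (ENSMUSG00000030114, chr6:122270596-122282882, minus strand) lies 7.31 Mb away. None of the 5 genes overlaps another annotated gene. Klrc1 and Klrc2 are close copies: 641 windows of 60 bases occur in transcripts of both, which is 31.4% of the Klrc1 windows and 19.3% of the Klrc2 windows. Reads from such stretches could have been assigned to either gene or discarded, so the counts of Klrc1 and Klrc2 are uncertain to that extent. Klrk1, Klrd1 and Klrg1 shared no window with each other or with Klrc1, Klrc2 and the neighbor Klrc3.

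The promoters of Klrk1, Klrc2 and Klrc1, the 3 genes with an entry in the RefSeq table used, are shown so that these neighboring genes can be compared. Each run covers 250 bases before to 50 bases after a RefSeq transcript start on the minus strand and is written 5′ to 3′ (GRCm38.p6). For Klrc2 that start lies inside the gene span given above, so that the window is not placed at the outer end of the gene. Klrk1 is at chr6:129623815-129624114, Klrc2 at chr6:129660547-129660846 and Klrc1 at chr6:129678924-129679223. Capitals mark the RUNX core, read as TGTGGT or, on the other strand, ACCACA, the letters recognized by RUNX factors such as Runx3 of CD8+ T cells.
Klrk1: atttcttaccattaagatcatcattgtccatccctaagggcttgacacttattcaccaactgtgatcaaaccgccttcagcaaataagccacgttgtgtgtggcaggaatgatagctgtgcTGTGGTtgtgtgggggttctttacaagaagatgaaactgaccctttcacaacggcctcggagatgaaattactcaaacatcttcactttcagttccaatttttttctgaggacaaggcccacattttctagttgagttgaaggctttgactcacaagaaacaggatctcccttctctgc
Klrc2: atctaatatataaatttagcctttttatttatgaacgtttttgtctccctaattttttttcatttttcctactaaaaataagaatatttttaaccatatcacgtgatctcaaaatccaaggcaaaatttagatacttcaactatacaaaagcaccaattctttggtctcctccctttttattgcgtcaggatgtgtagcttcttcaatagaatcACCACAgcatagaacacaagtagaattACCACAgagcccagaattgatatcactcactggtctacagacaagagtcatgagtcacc
Klrc1: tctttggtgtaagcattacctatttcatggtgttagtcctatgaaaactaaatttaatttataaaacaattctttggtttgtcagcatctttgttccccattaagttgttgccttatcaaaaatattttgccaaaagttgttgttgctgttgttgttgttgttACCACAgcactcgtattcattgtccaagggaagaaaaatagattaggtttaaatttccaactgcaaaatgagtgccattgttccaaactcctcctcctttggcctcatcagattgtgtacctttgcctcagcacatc
The RUNX core occurred once in the Klrk1 window, at 2 places in the Klrc2 window and once in the Klrc1 window. It was present in 16.9% of 27025 promoters of the same length. The T-box core (TCACAC or GTGTGA, 14.4% of promoters) and the interferon-stimulated response element (3.5%) were in none of the 3 windows. The TCF/LEF core (CTTTGA or TCAAAG, 16.2%) was in the Klrk1 window alone. Such matches are letters in a window and were not tested as binding sites.

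After filtering, assignment to mice and removal of 4 clusters with γδ T, dendritic or B cell genes (2863 cells), 36329 T cells were compared. The fewest were in RT mouse 4 with 133 cells and 1144661 UMIs, and the most in RT + αPD-L1 mouse 3 with 4370 cells and 35930530 UMIs. The libraries held 74058110 to 83841600 UMIs, and the median cell 6232 to 6930 UMIs. Before thinning, Cd3e was detected in 96.75% to 97.35% and Cd8b1 in 94.93% to 96.65% of the compared cells. Trdc, a γδ T cell gene, was in 0.66% to 0.87% and Tyrobp, an adaptor typical of NK and myeloid cells, in 0.83% to 1.14%. These low shares follow in part from the removal of those clusters and do not measure the purity of the sort. Ncr1, the defining NK cell receptor, was at 0 in every αPD-L1 and Control mouse and at most 0.39 CPM (counts per 1e6 UMIs of a mouse) in RT + αPD-L1 and RT mice. Between 113 and 163 barcodes were shared by any pair of libraries among assigned cells. Intervals and detection floors given for cells cover counting error only.

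Counts were summed per mouse and tested in 1 edgeR quasi-likelihood fit over 20 mice, and p-values were adjusted by the Benjamini-Hochberg method across 11933 genes. Calls needed an adjusted p below 0.05. In RT + αPD-L1 against Control, 4 of the 5 receptor genes were called and all 4 were higher, whereas Klrc2 was not called. In the same comparison 8.48% of all genes were called, and 5.94% were called higher. The median log2 fold change of the 5 genes was 1.39, against −0.002 over all genes. Without RT + αPD-L1 mouse 3, only 1 of the 5 genes, Klrd1, was called. Klrg1 passed the filter on low counts through treated mice, so its call adds no independent support. In sums per mouse, more cells of a type and more RNA per cell cannot be told apart.

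Klrd1, the CD94 chain, had 190.1, 213, 244, 233 and 201 CPM in RT + αPD-L1 mice 1 to 5. It had 196, 188, 185, 199 and 203 CPM in RT mice and 193, 182, 226, 186 and 188 CPM in αPD-L1 mice. Control mice had 158, 165, 133, 161 and 147 CPM. Every treated mouse lay above every Control mouse, in all 3 treatments. Over all genes, all treated mice were above all Control mice for 2.42% of genes in RT + αPD-L1, 1.48% in RT and 1.8% in αPD-L1. The means were 216 ± 22.3 CPM in RT + αPD-L1, 194 ± 7.24 in RT, 195 ± 17.9 in αPD-L1 and 153 ± 12.8 in Control (SD, n = 5 each). Klrd1 rose in RT + αPD-L1 by a log2 fold change of 0.53 ± 0.08 (SE, edgeR adjusted p = 0.00106). This was the steadiest of the calls, with values from 0.47 to 0.56 when each of the 20 mice was left out in turn and an adjusted p of at most 0.00469.

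Klrk1, the NKG2D receptor, had 12.4, 23.4, 66.0, 22.997 and 16.6 CPM in RT + αPD-L1 mice. It had 8.98, 24.3, 21.6, 9.61 and 13.2 CPM in RT mice and 12.5, 27.6, 11.4, 14.1 and 15.1 CPM in αPD-L1 mice. Control mice had 8.63, 17.2, 14.3, 10.6 and 9.74 CPM. RT + αPD-L1 mouse 3 stood far above all other mice, 3 of the 5 combination mice exceeded the highest Control mouse, and the groups overlapped. The means were 28.3 ± 21.6 CPM in RT + αPD-L1 (18.9 ± 5.29 without mouse 3), 15.5 ± 7.0 in RT, 16.1 ± 6.56 in αPD-L1 and 12.1 ± 3.54 in Control. The fitted change was 1.39 ± 0.36 (adjusted p = 0.0212) with all mice and 0.71 without mouse 3 (adjusted p = 0.175). Without Control mouse 1 or 5 the change was 1.26 or 1.302, with adjusted p of 0.0666 and 0.0535.

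Klrc1, the inhibitory NKG2A chain, had 10.9, 22.3, 87.2, 21.7 and 12.4 CPM in RT + αPD-L1 mice. It had 7.15, 27.7, 28.0, 9.61 and 12.4 CPM in RT mice and 8.08, 34.1, 12.4, 14.8 and 17.9 CPM in αPD-L1 mice. Control mice had 9.88, 16.1, 9.13, 8.15 and 10.6 CPM. The order of mice was close to that of Klrk1: mouse 3 again led the combination group, mice 2 and 3 led RT, and mouse 2 led αPD-L1. The means were 30.9 ± 31.9 CPM in RT + αPD-L1 (16.8 ± 6.03 without mouse 3), 17.0 ± 10.1 in RT, 17.5 ± 9.97 in αPD-L1 and 10.8 ± 3.11 in Control. The change was 1.66 ± 0.48 (adjusted p = 0.0334), and 0.68 without mouse 3 (adjusted p = 0.35). It was also lost without any single Control mouse, with adjusted p between 0.0504 and 0.0805 and changes of 1.60 to 1.89, so the Klrc1 call was close to its threshold.

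Klrc2, the activating partner of CD94, was scarce. It had 0.622, 0.897, 3.51, 0.464 and 0.453 CPM in RT + αPD-L1 mice. RT mice had 0.761, 1.27, 1.49, 0 and 0.725 CPM and αPD-L1 mice 0.367, 1.98, 1.32, 0.668 and 1.06 CPM. Control mice had 0.417, 1.0, 0.351, 0.204 and 0.823 CPM, from 1 to 28 UMIs each. Only mouse 3 of the combination group was above all Control mice, and for RT mouse 4 the value of 0 lies under a floor of 3 UMIs, or 2.62 CPM. The change of 1.31 ± 0.52 was not called (adjusted p = 0.128), and without mouse 3 it was −0.05 (adjusted p = 0.99).

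Klrg1, the effector marker, had 0, 1.57, 19.8, 2.69 and 0.906 CPM in RT + αPD-L1 mice, from 0, 21, 712, 29 and 6 UMIs. It had 0.152, 1.94, 3.20, 0 and 0.644 CPM in RT mice and 0, 3.76, 1.08, 0.182 and 0.177 CPM in αPD-L1 mice. Control mice had 0.417, 0.608, 0.117, 0.407 and 0.412 CPM, from 7, 17, 1, 2 and 6 UMIs. In the combination, 4 of 5 mice lay above the highest Control mouse and mouse 1 had no UMI. The fitted change was 3.89 ± 0.95 (adjusted p = 0.014). Without mouse 3 it was 1.83 (adjusted p = 0.264), and the mean of the combination mice was then 1.29 ± 1.13 CPM instead of 5.0 ± 8.34 CPM, against 0.392 ± 0.176 CPM in Control. Control mice held 33 Klrg1 UMIs in all, and Klrg1 passed the filter on low counts through treated mice. Its call is therefore no independent support for a rise.

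**Figure D1:**
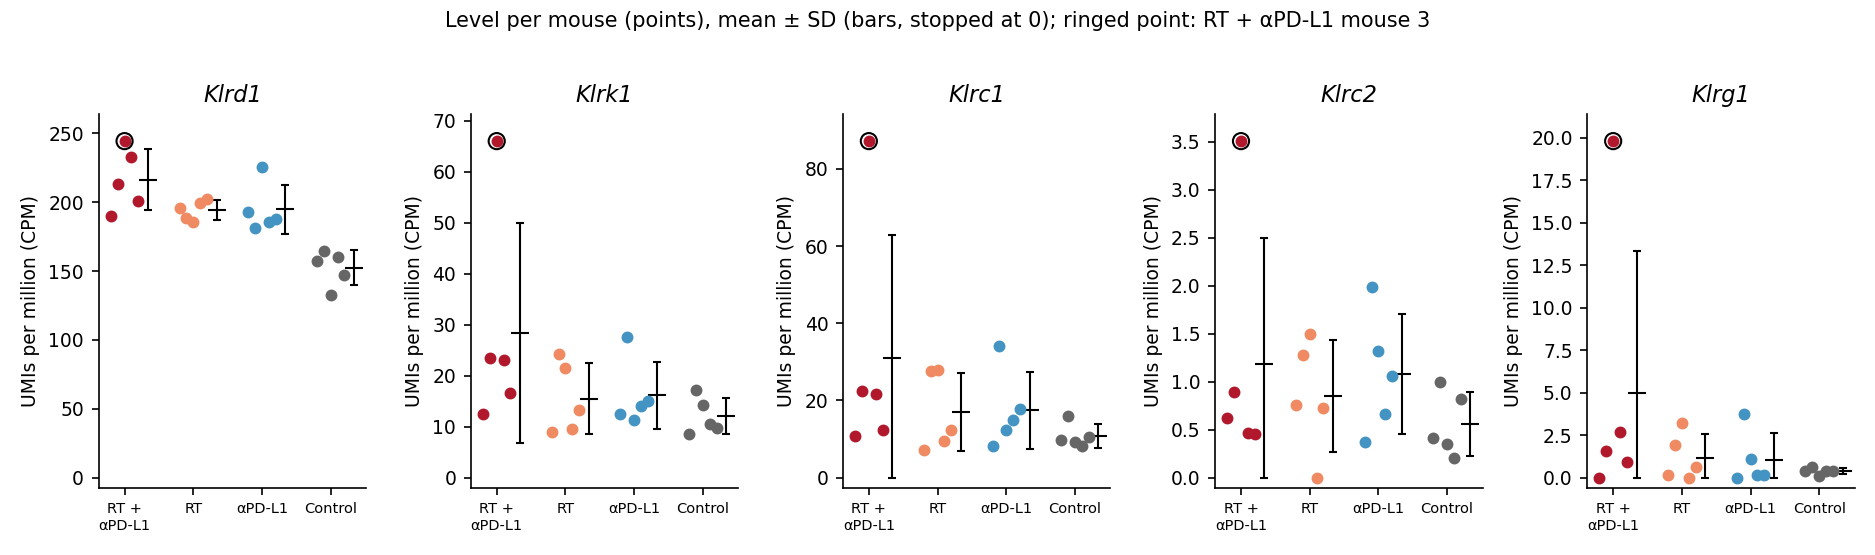
Level of each receptor gene in CPM by treatment, 1 point per mouse, with the mean and SD over 5 mice beside the points. All treated mice are above all Control mice for Klrd1, while RT + αPD-L1 mouse 3 (ringed) stands apart for Klrk1 (66.0 CPM), Klrc1 (87.2), Klrc2 (3.51) and Klrg1 (19.8).

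RT + αPD-L1 mouse 3 therefore carried most of the combination counts. It held 48.1% of the cells of its group, but 76.94% of the Klrk1, 82.81% of the Klrc1, 85.14% of the Klrc2 and 92.71% of the Klrg1 UMIs, against 54.58% of the Klrd1 UMIs. Its number of cells depended on the hashtag method, with 4370 compared cells here and 2219 by HTODemux, the method the study named. The same mouse was highest in its group for several marker lists. Summed interferon-high markers ranged from 235.5 to 2615.2 CPM in RT + αPD-L1 mice, with mouse 3 at the top, and from 148.3 to 487.7 CPM in Control mice, and 10 of 10 of these genes were called higher. Summed cytotoxic markers ranged from 1215.9 to 2741.0 CPM in RT + αPD-L1 mice and from 950.8 to 1160.2 CPM in Control mice, and Ctsw, Gzma, Gzmb and Gzmm (4 of 8) were called higher. The NK cell list summed to 53.8 to 546.5 CPM in RT + αPD-L1 mice and 45.8 to 75.6 CPM in Control mice. Of the 546.5 CPM in mouse 3, 479.81 CPM were Gzma, which cytotoxic T cells also express, and Gzma and Fcer1g were the 2 of 5 tested NK list genes called higher. Summed γδ T cell markers ranged from 6.4 to 16.3 CPM in RT + αPD-L1 mice and 6.7 to 11.7 CPM in Control mice, with Cd163l1 alone called higher. No gene of these lists was at 0 in all mice. When every cell with a UMI of Ncr1, Klrb1c, Tyrobp, Fcer1g, Trdc, Cd79a or H2-Aa was left out, Klrd1, Klrk1, Klrc1 and Klrg1 were still called, with changes of 0.52, 1.35, 1.61 and 3.77. The part of the cytotoxic genes in the receptor counts was not tested.

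With a single treatment, Klrd1 was again the gene with the smallest error. In αPD-L1 against Control, Klrd1 was the 1 of 5 receptor genes called, with a log2 fold change of 0.36 ± 0.08 (adjusted p = 0.0441), in a comparison in which 0.352% of all genes were called and 0.168% were called higher. This call was lost in 16 of 20 fits that left out 1 mouse, with adjusted p up to 0.116, while the change stayed between 0.28 and 0.39. In RT against Control, 0 of the 5 genes and 0.101% of all genes (12 genes) were called by edgeR, and 1112 genes had an unadjusted p under 0.05. The Klrd1 change was 0.35 ± 0.08 (adjusted p = 0.0993), which DESeq2 called (adjusted p = 0.0141). Klrk1 changed by 0.49 ± 0.39 in RT and 0.46 ± 0.38 in αPD-L1, and Klrc1 by 0.75 ± 0.50 and 0.72 ± 0.49, with adjusted p of at least 0.561. Klrc2 had changes of 0.66 ± 0.57 in RT and 0.91 ± 0.54 in αPD-L1, and Klrg1 of 1.82 ± 1.14 and 1.78 ± 1.10. None of these 8 values passed the test, and all were positive. The 3 comparisons share the same 5 Control mice, so their common direction is not repeated evidence.

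**Figure D2:**
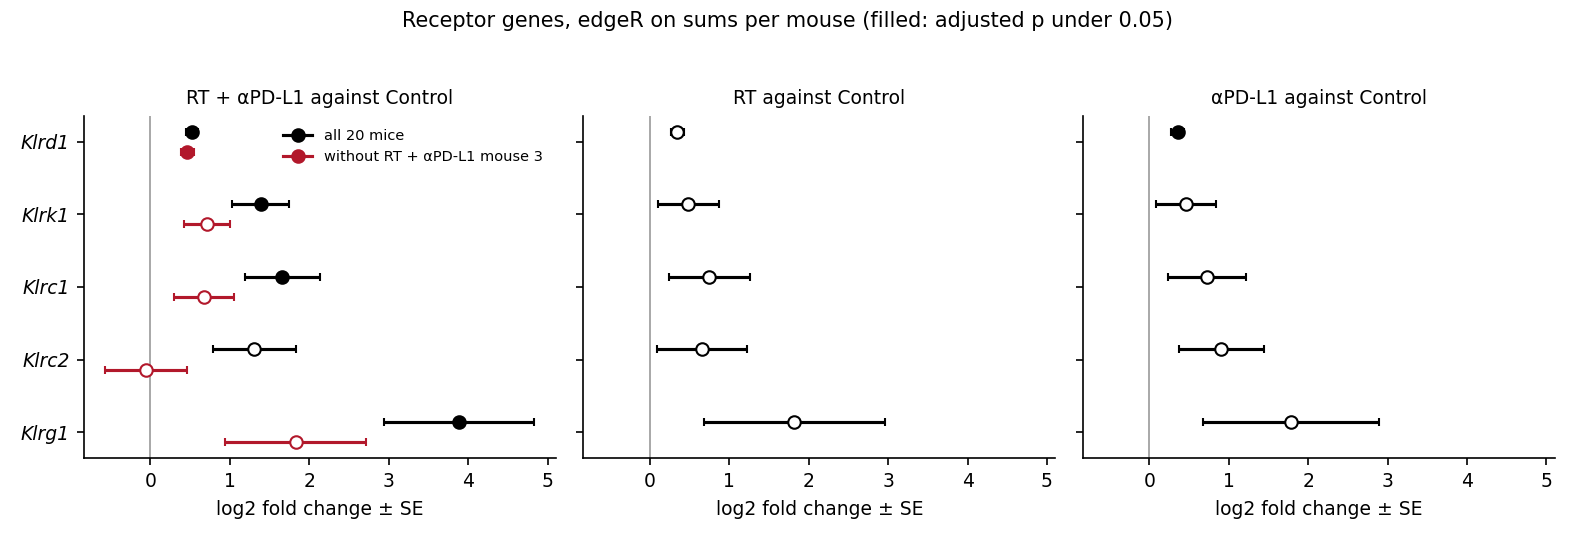
Log2 fold change of each receptor gene against Control, with its standard error, in the 3 treatments (edgeR, filled where adjusted p was under 0.05). In the combination Klrd1 (0.53), Klrk1 (1.39), Klrc1 (1.66) and Klrg1 (3.89) are filled with all 20 mice, and only Klrd1 (0.47) stays filled without RT + αPD-L1 mouse 3.

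The combination was then set against each single treatment. Against RT, 0 of 5 receptor genes and 3.08% of all genes (367) were called, with 1832 genes at an unadjusted p under 0.05. Against αPD-L1, 0 of 5 receptor genes and 2.42% of all genes (289) were called, with 1473 genes at an unadjusted p under 0.05. The receptor values were all positive. Klrd1 changed by 0.18 ± 0.08 against RT and 0.17 ± 0.08 against αPD-L1, Klrk1 by 0.90 ± 0.36 and 0.92 ± 0.35, and Klrg1 by 2.07 ± 0.79 and 2.10 ± 0.75, with adjusted p of at least 0.184. Klrc1 changed by 0.91 ± 0.46 and 0.94 ± 0.45, and Klrc2 by 0.65 ± 0.50 and 0.40 ± 0.47. How far the combination went beyond RT and αPD-L1 added together on the log2 scale was called for 0 of 5 receptor genes and 0.955% of all genes (114, with 1361 at an unadjusted p under 0.05). It was −0.18 ± 0.11 for Klrd1, 0.44 ± 0.52 for Klrk1, 0.19 ± 0.68 for Klrc1, −0.26 ± 0.74 for Klrc2 and 0.28 ± 1.52 for Klrg1. With all 20 mice, a difference between the combination and either single treatment was thus not shown for any of the 5 receptors. Without αPD-L1 mouse 2, which had the most Klrg1 of its group, the Klrg1 change against αPD-L1 was 3.75 (adjusted p = 0.0492).

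To separate detection from depth, each cell was thinned to 2000 UMIs, which left 34334 cells (420 to 596 shallower cells per group were left out). Klrd1 was detected in 31.0 ± 1.97% of RT + αPD-L1 cells, 28.3 ± 1.69% of RT cells, 29.2 ± 2.67% of αPD-L1 cells and 23.5 ± 3.24% of Control cells (mean and SD over 5 mice). Without thinning these shares were 53.4%, 53.9%, 51.4% and 45.3%. Each treatment differed from Control with p = 0.00794 in a two-sided exact permutation test over mice, the smallest p that 5 against 5 mice can give, and with p = 0.0662 after adjustment over 25 tests. In B cell-like cells, which should lack these receptors, Klrd1 was in 7.81% of 64 cells (95% Wilson interval 3.38% to 17.0%; median depth before thinning 3845 UMIs). Klrk1 was in 4.20 ± 2.44% of RT + αPD-L1 cells, 2.41 ± 0.70% of RT cells, 2.72 ± 0.878% of αPD-L1 cells and 2.03 ± 0.439% of Control cells (8.94%, 5.44%, 5.75% and 4.99% without thinning). Klrc1 was in 4.09 ± 3.21% of RT + αPD-L1 cells, 2.52 ± 0.922% of RT cells, 2.30 ± 1.09% of αPD-L1 cells and 1.77 ± 0.292% of Control cells (8.97%, 6.14%, 6.08% and 4.79% without thinning). For both genes the combination differed from Control with exact p = 0.0159 (adjusted p = 0.0795), so no share passed the adjusted threshold. Both genes were in 0 of 64 B cell-like cells, which allows a share of up to 4.69% (3 cells of 64). In the 430 dendritic-like cells, with a median depth of 7116.5 UMIs before thinning, Klrk1 was in 8.14% (95% Wilson interval 5.91% to 11.1%), above its mean share in every treatment. Klrc1 was in 1.86% (0.946% to 3.63%) and Klrd1 in 17.4% (14.1% to 21.3%) of these cells. The source of those UMIs was not tested, so the shares of Klrk1 over all T cells cannot be read as the share of cells that express it. Klrc2 was in 0.24% of RT + αPD-L1 and 0.124% of Control cells and Klrg1 in 0.539% and 0.145%. Both were also in 0 of the 64 B cell-like cells, a number too small to set a background for them.

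Cells with the marker genes of the study's Klrk1+ subset were also counted. The study found that subset by clustering and reported its expansion in the combination. It also followed the subset by flow cytometry of LY6A and CD314, the NKG2D protein. The count here is another measure, limited by the few Klrk1 UMIs per cell, and does not show whether the study's subset expanded. Cells with UMIs of Tcf7 (TCF-1, the stem-like T cell factor), Ly6a and Klrk1 at 2000 UMIs made up 0.235%, 0.984%, 2.80%, 1.07% and 0.11% of cells in RT + αPD-L1 mice 1 to 5. The group means were 1.04 ± 1.07% in RT + αPD-L1, 0.479 ± 0.363% in RT, 0.301 ± 0.204% in αPD-L1 and 0.339 ± 0.218% in Control. RT + αPD-L1 mice 2, 3 and 4 were above every Control mouse and mice 1 and 5 were not, and the exact permutation p was 0.143 (adjusted p = 0.357 over 5 comparisons). Without mouse 3 the mean of the combination mice was 0.60 ± 0.498% (exact permutation p = 0.31). Ly6a was found more often among Klrk1+ cells than among all cells of the same mouse: in mouse 3 it was in 85.8% of Klrk1+ cells and in 52.7% of all cells. Tcf7 went the other way in that mouse, in 40.0% of Klrk1+ cells and 53.7% of all cells. It was also lower among Klrk1+ cells in RT + αPD-L1 mice 1 (58.33% of Klrk1+ cells, 61.5% of all), 2 (51.56% and 60.05%) and 5 (31.82% and 62.16%), and not in mouse 4 (62.0% and 60.97%). Shares of cells are limited by how many UMIs each gene gives, and Klrk1+ cells numbered 12 in mouse 1 and 345 in mouse 3.

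The receptors differed in where they were expressed. Cells were clustered on variable genes with the 5 receptors left out, and 9 T cell clusters were compared. The remaining clusters held γδ T cell, dendritic or B cell genes and were left out of the comparisons, among them 1770 cells led by Klra7, whose Ly49 and γδ T cell genes left its identity mixed (Cd8b1 in 73.39% and Trdc in 20.51% of its cells). Cluster levels are described without a test, as means over mice with at least 20 cells in the cluster. These were 10 mice for interferon-high-like cells and 17 to 20 mice for the other compared clusters. Klrd1 was broad. Its mean over mice was 346 ± 76.4 CPM in the cluster led by Hdac9, 280.3 ± 37.8 in naive-like cells led by Igfbp4 and 259 ± 29.1 in cells led by Capn3, neighbors in this order whose SDs over mice overlapped. Interferon-high-like cells led by Ifit3b followed with 231 ± 36.7 CPM, effector memory-like cells led by Ccl5 with 194 ± 63.9 and G2/M-like cells led by Birc5 with 141 ± 30.5. It was 125 ± 41.2 CPM in cells led by Gm26917, which were shallow with a median of 1710 UMIs, and 104 ± 27.7 in cells led by Srm. The lowest T cell cluster was the progenitor exhausted-like one led by Tnfrsf4, with 35.6 ± 15.6 CPM. Its highest level of all lay in the Klra7-led cells, with 482 ± 72.9 CPM. Of the naive-like cells, 38.6% had a Klrd1 UMI at 2000 UMIs (95% Wilson interval 37.5% to 39.8%), against 5.45% of Tnfrsf4-led cells (4.69% to 6.32%).

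Klrk1 was narrower. It had 78.0 ± 26.8 CPM in the effector memory-like cells, of which it was also a leading gene, 45.0 ± 33.4 in the Gm26917-led cells, 25.0 ± 16.0 in the interferon-high-like cells and 23.2 ± 21.0 in the G2/M-like cells, the last of these not separated beyond their SD. The other clusters had 9.51 ± 7.54 CPM (Hdac9), 8.29 ± 4.30 (Capn3), 4.99 ± 2.84 (Tnfrsf4), 1.52 ± 1.63 (naive-like) and 1.48 ± 1.89 (Srm). At 2000 UMIs, Klrk1 was in 12.8% of effector memory-like cells (11.8% to 13.9%) and in 0.309% of naive-like cells (0.204% to 0.468%), whose median depths before thinning were 6138 and 4992 UMIs. Outside the compared cells, the γδ T cell-like cells led by Trdv4 had 82.1 ± 32.3 CPM and the dendritic-like cells 43.8 ± 39.6 CPM.

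Klrc1 followed Klrk1 in the effector memory-like (62.7 ± 37.4 CPM), Gm26917-led (42.8 ± 31.4), G2/M-like (30.1 ± 32.8) and interferon-high-like cells (16.2 ± 17.1). It departed from Klrk1 in the Hdac9-led cells with 30.2 ± 12.5 CPM, and in the Trdv4-led γδ T cell-like cells with 9.56 ± 10.8 CPM. Naive-like cells had 1.69 ± 1.25 CPM. Klrc2 was highest in the Klra7-led cells with 12.3 ± 5.68 CPM and the Gm26917-led cells with 9.81 ± 11.2 CPM, and it was at 2.44 ± 1.58 CPM in effector memory-like cells. Klrg1 was at 5.46 ± 13.2 CPM in G2/M-like and 4.78 ± 7.85 CPM in effector memory-like cells. It was at 0 in the 1454 Hdac9-led cells and near 0 in 4 other clusters. Capn3-led, naive-like, Srm-led and Tnfrsf4-led cells had 0.096, 0.05, 0.138 and 0.038 CPM, from 5, 2, 4 and 1 UMIs. Of the Klrg1 UMIs in RT + αPD-L1, 75.39% came from G2/M-like cells, which were 10.98% of the cells. G2/M-like cells were also deeper, with a median of 16135 UMIs before thinning against 6138 in effector memory-like cells. After thinning to equal depth, Klrg1 was in 1.65% of G2/M-like and 1.03% of effector memory-like cells over all groups. RT + αPD-L1 mouse 3 held 712 of the 768 Klrg1 UMIs of its group, so the share of 75.39% rests mainly on that mouse.

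**Figure D3:**
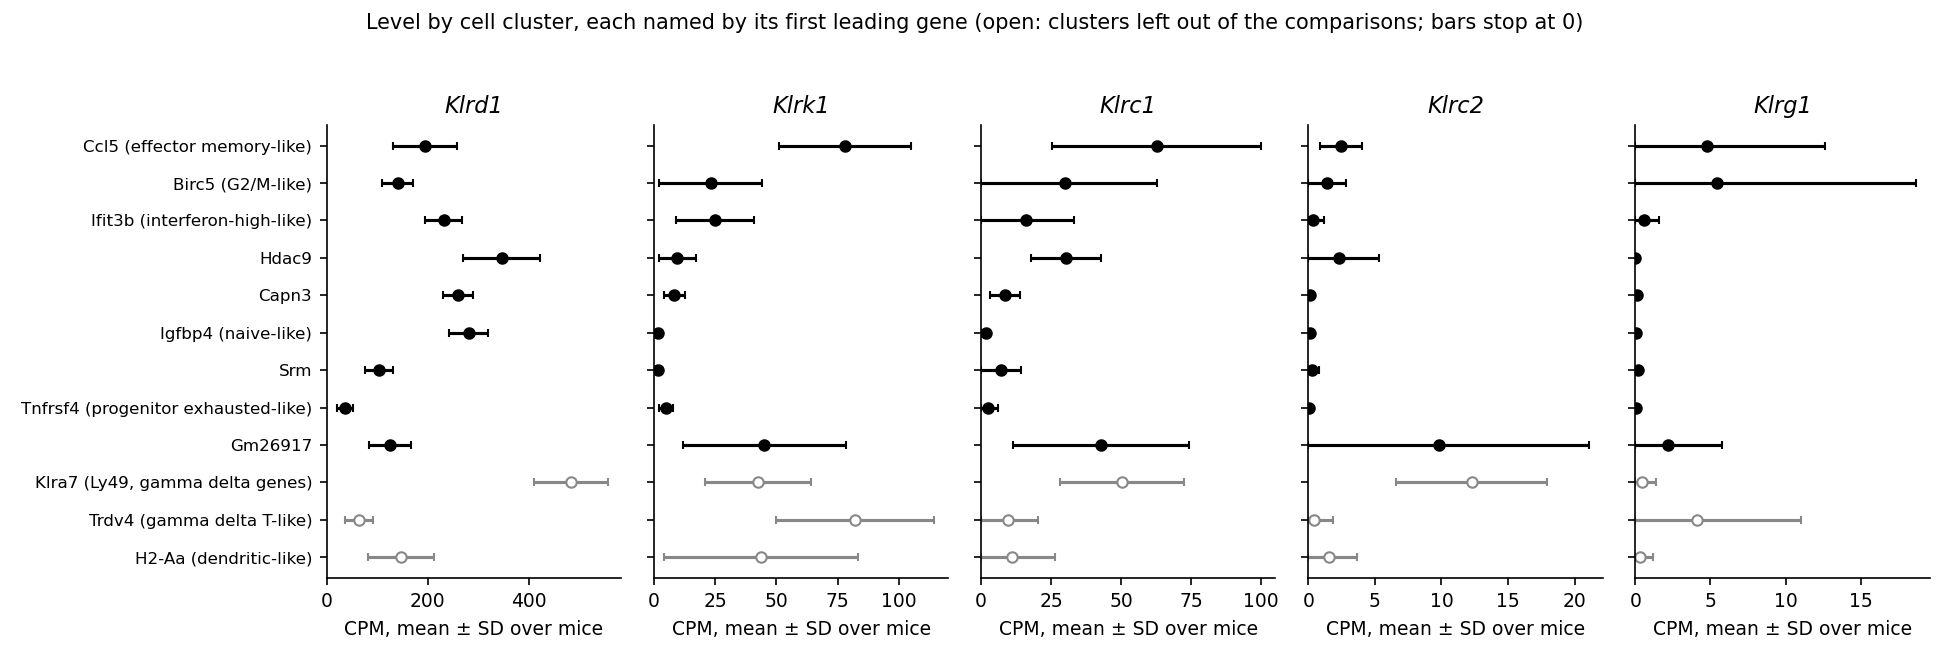
Level of each receptor gene (CPM, mean and SD over mice with at least 20 cells) in each cell cluster, with open symbols for clusters left out of the treatment comparisons. Klrd1 is broad, from 35.6 CPM in Tnfrsf4-led to 346 CPM in Hdac9-led T cells, whereas Klrk1 (78.0) and Klrc1 (62.7) peak among compared cells in the Ccl5-led effector memory-like cluster.

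The clusters were not equally filled in the groups. Interferon-high-like cells were 28.69% of RT + αPD-L1 cells and 2.06% of Control cells, and ranged from 0.67% in mouse 1 to 41.05% in mouse 3 of the combination. Their leading genes also included markers of Ly6a+ stem-like cells. Interferon-high-like cells gave 26.60% of the Klrk1 UMIs, 21.02% of the Klrc1 UMIs and 4.69% of the Klrg1 UMIs of the combination. Without that cluster the changes in RT + αPD-L1 were 0.48 for Klrd1, 1.38 for Klrk1, 1.78 for Klrc1 and 4.22 for Klrg1, and the adjusted p ranged from 0.00122 to 0.0354, so all 4 were still called. Clusters rich or poor in Klrd1 were unequal too. Naive-like cells were 13.41% of RT + αPD-L1, 23.14% of RT, 26.25% of αPD-L1 and 16.54% of Control cells. Capn3-led cells were 13.93%, 22.84%, 19.76% and 25.67% in that order. Tnfrsf4-led cells, the lowest in Klrd1, were 4.86%, 9.83%, 7.22% and 11.74%. How far these shares shape the Klrd1 values was not tested.

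Within clusters, RT + αPD-L1 and Control mice with at least 20 cells were compared. Of 22 receptor tests that passed the filter on low counts, 9 were called, all higher. Among all genes tested, 0.0% to 2.36% were called, depending on the cluster. The clusters hold cells of the same mice, so calls in several clusters are not repeated evidence. Without RT + αPD-L1 mouse 3, 1 receptor call was left. Klrd1 was called in 4 of 9 clusters. In G2/M-like cells it had 148, 196, 205, 178 and 157 CPM in RT + αPD-L1 mice. The RT mice with enough cells had 148, 152, 145 and 159 CPM, αPD-L1 mice 110.3, 145, 125, 130.0 and 143 CPM, and Control mice 91.0, 119, 110.5, 108 and 106 CPM. All RT + αPD-L1 mice were above all Control mice, as they were for 1.11% of the genes tested in this cluster. The change there was 0.75 ± 0.09 (adjusted p = 0.00015), where 2.36% of genes were called, and it was 0.69 (adjusted p = 0.000473) without mouse 3. Klrd1 was also called in effector memory-like cells (0.84 ± 0.18, adjusted p = 0.00816; 1.66% of genes called), in Srm-led cells (0.79 ± 0.14, adjusted p = 0.00176; 1.24%) and in Capn3-led cells (0.27 ± 0.06, adjusted p = 0.0113; 1.76%). Without mouse 3 these were 0.63, 0.61 and 0.24, with adjusted p of 0.0654, 0.0665 and 0.0688. In naive-like cells the Klrd1 change was 0.16 ± 0.08 (adjusted p = 0.495; 1.52% of genes called) and in Hdac9-led cells −0.04 ± 0.17 (adjusted p = 0.994; 0.258%), with 3 combination mice. Tnfrsf4-led cells had 0.78 ± 0.28 (adjusted p = 0.366; 0.553%), and Gm26917-led cells 0.62 ± 0.22 (adjusted p = 0.229; 1.79%). In interferon-high-like cells, with 4 combination and 3 Control mice, no receptor and 0.0% of 7651 genes were called by edgeR, with 513 genes at an unadjusted p under 0.05.

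For the other receptors, every within-cluster call was lost without mouse 3. Klrk1 in G2/M-like cells had 10.1, 28.2, 97.0, 20.2 and 16.1 CPM in RT + αPD-L1 mice and 5.07, 21.4, 8.62, 3.50 and 15.6 CPM in Control mice. Its change was 1.81 ± 0.49 (adjusted p = 0.0493), and 0.67 (adjusted p = 0.711) without mouse 3. That call was also lost without RT + αPD-L1 mouse 2 or Control mouse 1, 3, 4 or 5 (changes of 1.58 to 1.94, adjusted p of 0.0519 to 0.153). It was also called in Gm26917-led cells (1.67 ± 0.41, adjusted p = 0.0205; 1.09 and 0.647 without mouse 3, 1.43 and 0.154 without Control mouse 2, 1.57 and 0.0618 without Control mouse 5), but not in the effector memory-like cells where its level was highest (0.46 ± 0.23, adjusted p = 0.441). There it had 65.0, 71.2, 160.1, 80.7 and 66.0 CPM in RT + αPD-L1 mice and 70.0, 77.5, 102, 46.8 and 52.1 CPM in Control mice, and the groups overlapped. Klrc1 was called in Capn3-led (1.20 ± 0.29, adjusted p = 0.0239) and Gm26917-led cells (1.68 ± 0.45, adjusted p = 0.0408), with 0.72 and 0.67 and adjusted p of 0.354 and 0.867 without mouse 3. Without Control mouse 5 the Capn3-led value was 1.03 (adjusted p = 0.067), and the Gm26917-led call was lost without any single Control mouse (1.54 to 1.996, adjusted p of 0.0572 to 0.16). In the shallow Gm26917-led cells, Control mice gave 30 Klrk1 and 28 Klrc1 UMIs in all, against 130 and 126 in RT + αPD-L1 mice. Both calls in that cluster therefore rest on few counts, mainly those of treated mice. Klrg1 could be tested in G2/M-like cells alone, with a change of 4.28 ± 0.98 (adjusted p = 0.0182), 1.73 (adjusted p = 0.642) without mouse 3 and 3.93 (adjusted p = 0.0654) without Control mouse 1. Mouse 3 had 58.7 CPM of Klrg1 there, the other combination mice 0 to 7.38 CPM and Control mice 0 to 2.03 CPM. Control mice gave 18 Klrg1 UMIs in these cells, so this test, too, rests mainly on treated mice.

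**Figure D4:**
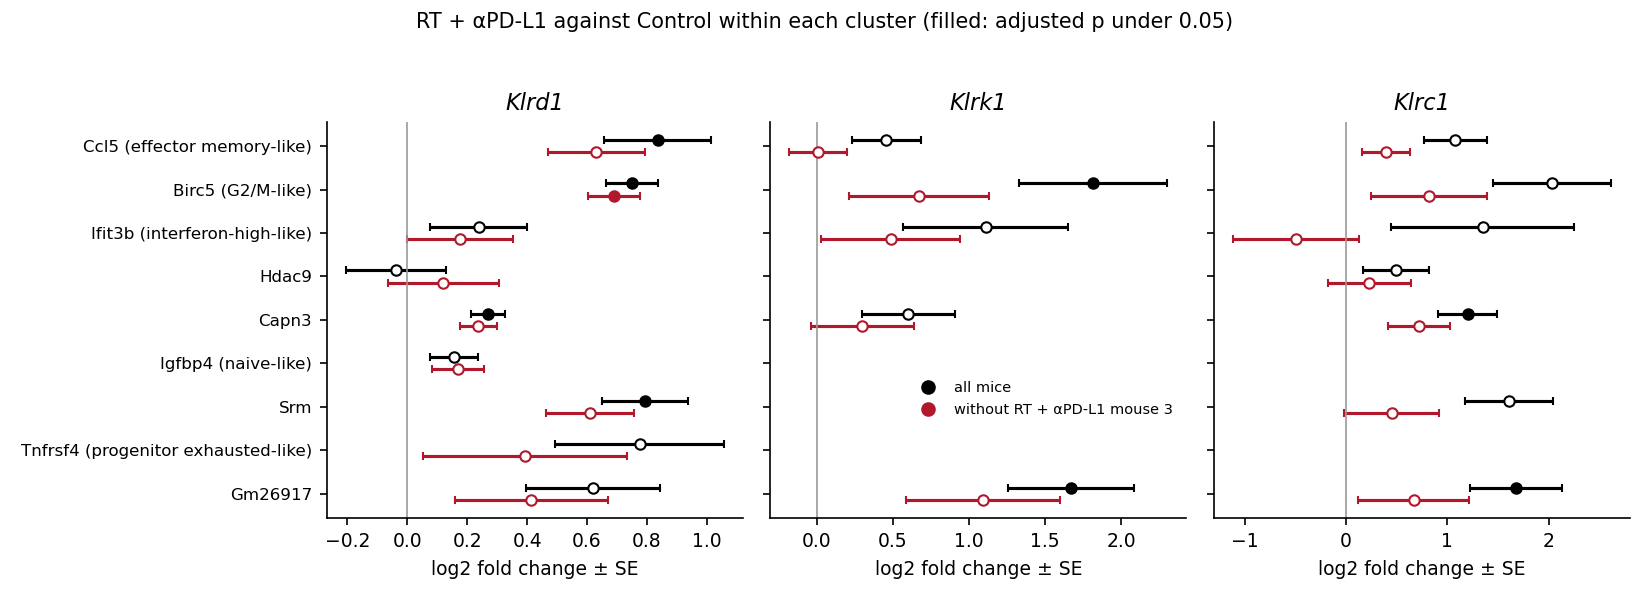
Log2 fold change (± SE) of Klrd1, Klrk1 and Klrc1 in RT + αPD-L1 against Control within each cluster, with all mice (black) and without RT + αPD-L1 mouse 3 (red), filled where edgeR's adjusted p was under 0.05. Klrd1 in Birc5-led cells is filled in both fits (0.75 and 0.69), and no Klrk1 or Klrc1 value is filled without mouse 3.

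Klrk1 and Klrc1 were found in the same cells more often than their separate shares give. At 2000 UMIs, 296 cells had both, where the product of the shares within each mouse gives 56.1, a ratio of 5.27. Klrc1 was in a median of 22.32% of Klrk1+ cells and 1.56% of Klrk1− cells, and it was higher among Klrk1+ cells in 20 of 20 mice. Inside clusters, the product was taken over the cells of all mice together, so differences between mice can add to the excess there. In the clusters with the most such cells there were 153 cells against 54.94 (effector memory-like), 67 against 13.71 (G2/M-like) and 43 against 7.42 (interferon-high-like). In naive-like and Srm-led cells the product was 0.08 and 0.18 cells, too few to compare with the 0 cells found. Klrd1, which both NKG2A and NKG2C need as partner, was in a median of 42.95% of Klrc1+ cells and 28.54% of Klrc1− cells (higher in 17 of 20 mice). It was in a median of 45.08% of Klrk1+ cells and 27.98% of Klrk1− cells (18 of 20 mice). Klrc1 and Klrc2 were together in 31 cells against 4.1 from the product, a count that their shared sequence can affect. Klrg1 was with Klrk1 in 32 cells against 7.9 and with Klrc1 in 39 against 8.8, but with Klrd1 in 39 against 39.7. RT + αPD-L1 mouse 3 held 22 of the cells with Klrk1 and Klrg1 and 27 of those with Klrc1 and Klrg1, and without it there were 10 against 1.8 and 12 against 1.8. For Klrk1 with Klrc1 there were 170 against 22.6 without mouse 3. These are descriptions over cells, and a product of at least 1 cell was reached in 8 of the 20 mice for Klrk1 with Klrc1 and in 1 mouse for Klrg1 with Klrk1 or Klrc1.

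**Figure D5:**
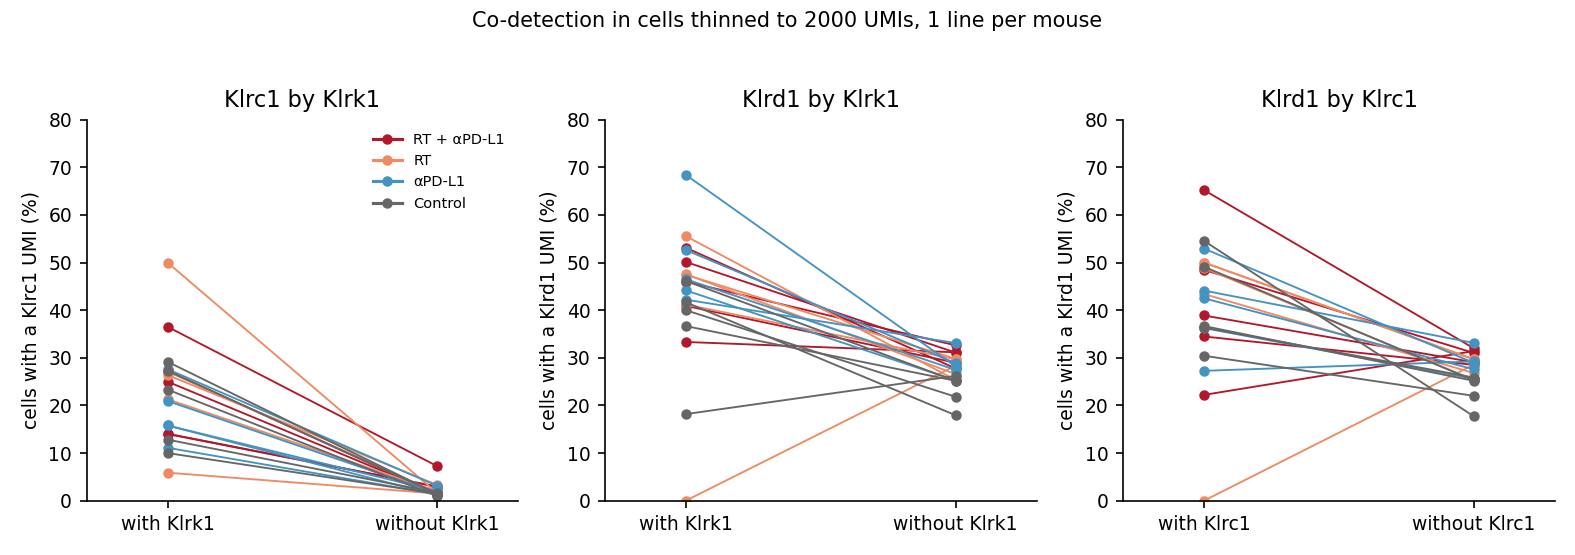
Share of cells (%, thinned to 2000 UMIs) with a UMI of the second gene among cells with and without the first, 1 line per mouse, colored by treatment. The Klrc1 share is higher among Klrk1+ cells in all 20 mice (medians 22.32% and 1.56%), and the Klrd1 share in 18 of 20 for Klrk1 and 17 of 20 for Klrc1.

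Across the 20 mice, log2 CPM of Klrk1 and Klrc1 had a Pearson r of 0.949 (0.944 within groups and 0.903 without RT + αPD-L1 mouse 3), and r was 0.875 over the means of 9 clusters. Klrc1 and Klrg1 had r = 0.877, Klrk1 and Klrg1 0.84, and Klrc1 and Klrc2 0.75. Klrd1 stood apart, with r of 0.473 with Klrk1 and 0.476 with Klrc1 over all mice, and 0.165 and 0.229 within groups. The genes most like Klrk1 over mice, among 7727 genes with at least 10 CPM, were Serpinb9 (r = 0.909), an inhibitor of granzyme B, Tmbim6 (0.885) and Sh3glb1 (0.884). Those most like Klrc1 were Serpinb9 (0.891), Sh3glb1 (0.884) and Sub1 (0.879), and those most like Klrg1 were Sh3glb1 (0.818), Serpinb9 (0.809) and Prf1 (0.799), which encodes perforin. Klrc2 was followed by Utp23 (0.845), Fkbp2 (0.84) and Rpp25l (0.819), and Klrd1 by Kpna4 (0.872), Trp53inp1 (0.839) and Thada (0.828). Over the 9 cluster means the leading genes were Gzmk, a granzyme (0.945), Polr3c (0.885) and Ms4a4b (0.873) for Klrk1, Plek (0.914), Gzmk (0.842) and Il10ra (0.834) for Klrc1, and Lcn4 (0.929), 4930453N24Rik (0.879) and Gimap6 (0.864) for Klrd1. For Klrc2 they were Chsy1 (0.977), Epn1 (0.969) and Ttc7b (0.956), and for Klrg1 1500009L16Rik (0.957), Gzma (0.944) and Lgals3 (0.943). The mice share libraries within a treatment, and each r is a description that was chosen as the highest of many.

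Adaptors of activating NK receptors, not only of the receptors described here, were examined in RT + αPD-L1 against Control, where 8.48% of all genes were called. For these genes, and for the ligands and other lists that follow, fits without mouse 3 were not examined. Of the 3 adaptors of activating NK receptors, 2 were called higher. Hcst, which encodes the NKG2D adaptor DAP10, was at 404 ± 22.7 CPM in RT + αPD-L1 and 351 ± 21.6 CPM in Control (log2 change 0.22 ± 0.06, adjusted p = 0.0354). Fcer1g, the Fc receptor γ chain, was at 1.96 ± 1.31 CPM in RT + αPD-L1 and 0.53 ± 0.2 CPM in Control, with a change of 2.15 ± 0.42 (adjusted p = 0.00319). Control mice 1 to 5 held 5, 16, 7, 2 and 8 Fcer1g UMIs, and RT + αPD-L1 mice 4, 43, 127, 8 and 7. The Fcer1g call therefore rests mainly on treated mice and is no independent support for a rise. Tyrobp, which encodes the NKG2C adaptor DAP12, was at 1.94 CPM in RT + αPD-L1 and 1.49 CPM in Control, with a change of 0.65 ± 0.29 (adjusted p = 0.175). Hcst had a UMI in 82.58% to 84.43% of cells per library before thinning, far above the share of Tyrobp given earlier.

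Of the ligands of the receptors, 2 of 9 passed the filter on low counts and 1 was called. H2-T23, which encodes Qa-1, the ligand of both CD94 pairs, was at 605 ± 114 CPM in RT + αPD-L1 and 436 CPM in Control, a change of 0.50 ± 0.10 (adjusted p = 0.00344). It was also higher in the combination against RT (0.54 ± 0.10, adjusted p = 0.00449) and against αPD-L1 (0.51 ± 0.10, adjusted p = 0.00412). Ulbp1, an NKG2D ligand, had a change of 0.04 ± 0.10 (adjusted p = 0.984).

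Calls among the downstream and neighboring genes stand beside 8.48% of all genes called in this comparison, and no excess or shortage of calls in these lists was shown. Of the kinases and signal proteins of the activating arm, 1 of 6 tested was called: Pik3r1, a subunit of the phosphatidylinositol kinase that DAP10 recruits, at 0.20 ± 0.06 (adjusted p = 0.0337). Zap70 and Lck had changes of −0.09 ± 0.03 and −0.01 ± 0.04 (adjusted p = 0.104 and 0.977). The inhibitory phosphatases Ptpn6 and Ptpn11, which the NKG2A tail recruits, had changes of −0.07 ± 0.06 and −0.02 ± 0.07, and 0 of 3 were called. Among other genes of the NK gene complex, 6 of 21 were tested and 0 called, with Klrb1f at 0.31 ± 0.27 and Klra3 at 0.94 ± 0.50 and a median of 1.22. NK-type receptors outside the complex had 0 of 7 called and a median of −0.04, with Cd226 at 0.08 ± 0.05 and Cd96 at −0.06 ± 0.09. Of 16 regulators of NK receptor expression in T cells, 2 were called higher. Runx3, the RUNX factor of CD8+ T cells, was at 83.0 ± 10.8 CPM in RT + αPD-L1 and 67.4 CPM in Control (0.33 ± 0.09, adjusted p = 0.0212). Prdm1, the effector factor Blimp-1, was at 2.33 ± 1.19 CPM in RT + αPD-L1 and 1.02 CPM in Control (1.46 ± 0.36, adjusted p = 0.0142). Tcf7 and Il2rb, a subunit of the IL-2 and IL-15 receptors, had changes of −0.13 ± 0.05 and 0.06 ± 0.09 and were not called.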

How the data were processed

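For each of 4 libraries, the deposited values are unnormalized UMI counts of genes and hashtags by cell barcode, which the authors made with Cell Ranger (6.1.2 in the matrix headers; the methods name another version) and the mm10 reference. Barcodes were kept if they had 500 to 5000 genes, no more than 40000 UMIs and a mitochondrial share below 10% (43971 of 47820). Each hashtag was cut at the emptiest bin (0.1 in log10 count) between its modes, a departure from the HTODemux that the study's methods name, and 39192 barcodes with exactly 1 hashtag were kept. Barcodes with several hashtags (7.47% to 8.85%) were removed as doublets, and no other doublet caller was run. Cells were clustered with scanpy 1.11.5 (1996 variable genes, the receptors left out; 20 components, 15 neighbors, Leiden 0.6, leidenalg 0.10.2). A cluster was named when at least 3 fixed markers were among its 50 leading genes and 1 among the first 10. The 4 clusters with γδ T, dendritic or B cell genes (2863 cells) were left out.

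Counts were summed per mouse. edgeR 4.0.16 (R 4.3.3; TMM, filterByExpr, quasi-likelihood F test, two-sided) was fitted on 20 mice, with Benjamini-Hochberg adjustment over 11933 genes, and within clusters on mice with at least 20 cells. CPM are per 1e6 UMIs of the mouse. Shares were tested by exact permutation over mice (252 splits, SciPy 1.17.1). The tests were checked on simulated counts. Likeness used log2 CPM with a prior count of 2. Named besides the 5 receptors are, in each pathway list, the called genes and the 2 most abundant, and the 3 genes most like each receptor. The genes, lists and tests were chosen with earlier results of these data known. Alternatives were DESeq2 1.42.0, no TMM, no filter, only the 10 mice compared, HTODemux (Seurat 5.3.0, quantile 0.99), other cell selections, other thinning and leaving out each mouse. Separate mice are replicates, so p-values measure the spread between mice.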

Additional observations from a re-analysis of the deposited data

Results flagged for a closer look

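In each treatment, the 5 mice were examined for 1 mouse far from the other 4, for the CPM of each receptor and for the share of Tcf7+ Ly6a+ Klrk1+ cells. In 7 of 24 such groups the gap to the nearest mouse was more than 0.71 of the range, where chance gives about 1 in 20. RT + αPD-L1 mouse 3 was such a mouse for Klrk1 (66.0 CPM), Klrc1 (87.2 CPM), Klrc2 (3.51 CPM) and Klrg1 (19.8 CPM). αPD-L1 mouse 2 was one for Klrk1 (27.6 CPM) and Klrg1 (3.76 CPM). αPD-L1 mouse 3 was one for Klrd1 (226 CPM).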

How the results depend on the processing

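No paired analysis was possible because the hashtag numbers name mice within a library and tie none to a mouse of another library. Of the receptors called in RT + αPD-L1 against Control (4), 2 were called with HTODemux and 1 with only the 10 mice compared, where Klrc2 and Klrg1 failed the filter. Klrk1 was then 1.22 (adjusted p = 0.0569) with HTODemux and 1.37 (0.0625) with 10 mice, and Klrc1 1.60 (0.0574) and 1.64 (0.0752), and 1.55 (0.061) with DESeq2. In RT against Control, 1 receptor (Klrd1) was called with DESeq2 and with 10 mice, and in αPD-L1 against Control 0 with HTODemux. The cause of these changes was not tested. With all assigned cells the Klrc2 excess was 0.073. Differences in share turned for Klrd1 in RT + αPD-L1 against RT without thinning (−0.496 points), and in αPD-L1 against Control for Klrg1 (0.0082 points at 4000 UMIs, 0.0876 unthinned) and for Tcf7+ Ly6a+ Klrk1+ cells (0.0096 and 0.451).

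Leaving out each mouse in turn, the receptors called were 1 to 4 in RT + αPD-L1, 0 to 1 in RT and 0 to 1 in αPD-L1 against Control, and 0 to 1 in RT + αPD-L1 against αPD-L1. In RT + αPD-L1 against Control, Klrk1 ranged from 0.71 to 1.60, Klrc1 from 0.68 to 1.89, Klrc2 from −0.052 to 1.69 and Klrg1 from 1.83 to 4.19. Against RT, Klrc1 ranged from −0.076 to 1.14 and Klrc2 from −0.71 to 0.87, and against αPD-L1, Klrc1 from −0.049 to 1.43 and Klrc2 from −0.96 to 0.85. The excess ranged from −0.25 to 0.81 for Klrk1, −0.80 to 0.68 for Klrc1, −1.62 to 0.19 for Klrc2 and −1.77 to 1.93 for Klrg1. Differences in share ranged from −0.0464 to 0.119 points (Klrc2, RT + αPD-L1 against RT), −0.0336 to 0.132 (Klrc2, against αPD-L1), −0.0422 to 0.062 (Klrg1, RT against Control), −0.0642 to 0.0432 (Klrg1, αPD-L1 against Control) and −0.109 to 0.0376 (Tcf7+ Ly6a+ Klrk1+ cells, αPD-L1 against Control). Shares past the adjusted threshold numbered 0 to 5, and calls within clusters 1 to 12. Klrc2 and Klrg1 rest on few UMIs per mouse, and 1 library per treatment limits every comparison. Leaving out the interferon-high-like or the low-depth cluster, each mouse within clusters, or mouse 3 from the co-detection, was chosen after seeing the data.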
